A study of Homo sapiens with 6 samples.

Results

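The baseline miRNA profile of control HEK-293FT cells was read from the 3 control cards of a series of 6, the other cards coming from cells treated with siRNA against TruB1, which were not used. HEK-293FT is an established human line of embryonic kidney origin that expresses the SV40 large T antigen. The controls carry the genotype label "control" and the series numbers 1, 2 and 3. The cells were grown in DMEM with serum, and the protocol common to all samples names transfection of siRNAs with Lipofectamine RNAiMAX. The labels do not say whether the controls received a control siRNA, nor whether they came from separate cultures, so the spread between cards may be technical. Each card measured 377 human miRNA assays in single wells and the reference, U6 small nuclear RNA, in 4. The assays kept for the profile were those with no raw value under cycle 10 on a control card, which left 376. The assay left out was miR-890, with a threshold cycle (Ct) of 3.73 on control card 3 and no Ct on the others. The earliest well kept was miR-19b at 15.9, also on card 3.

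A miRNA is cut from a hairpin in a longer transcript, and the mature strand is loaded into an Argonaute protein, which it directs to messenger RNAs. Target choice rests mainly on the seed, bases 2 to 8 from the 5′ end, so miRNAs with the same seed form a family. Many miRNA genes lie in clusters that are transcribed together, and many are silent outside a single tissue, so that the set of miRNAs a cell line holds reflects its lineage and growth state. The assay converts each miRNA to cDNA with a primer of its own and follows its amplification by a fluorescent probe. The Ct is the cycle at which the signal crosses a threshold, and a lower Ct stands for more template. At full efficiency 1 cycle is a doubling. Efficiency was not measured here and differs between assays, so the order of miRNAs by Ct is an order of assays, and small gaps between different miRNAs cannot be read as amounts.

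The earliest 5 assays belonged to seed families of the miR-17~92 cluster and its paralogue, the X-linked miR-106a cluster. The miR-17~92 cluster is a primary transcript known for driving proliferation. These 5 are shown because they hold most of the measured signal, with the seed in capitals. miR-93, only at rank 14 by mean Ct, is added because it has the miR-17 seed:
miR-17: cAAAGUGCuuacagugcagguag
miR-106a: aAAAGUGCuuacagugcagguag
miR-20a: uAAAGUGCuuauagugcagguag
miR-93: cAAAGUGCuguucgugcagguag
miR-19b: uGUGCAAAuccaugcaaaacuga
miR-19a: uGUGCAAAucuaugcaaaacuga

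The assays at ranks 6 to 13 came from other families and loci, and their sequences show that the seeds differ:
miR-16: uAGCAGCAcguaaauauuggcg
miR-191: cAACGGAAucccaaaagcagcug
miR-222: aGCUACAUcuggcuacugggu
miR-484: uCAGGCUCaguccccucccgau
miR-218: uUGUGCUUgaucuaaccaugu
miR-454: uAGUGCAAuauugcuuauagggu
miR-196b: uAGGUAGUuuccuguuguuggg
miR-30c: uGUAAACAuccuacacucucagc

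These are the target sequences of the deposited assay table. An identical mature sequence was found in RefSeq (GRCh38.p14) for 324 of the 376 assays. On that build miR-17 lies at chr13:91350618-91350640 and miR-20a at chr13:91351072-91351094, both on the plus strand and within the interval of the non-coding gene MIR17HG. miR-19b has a copy in MIR17HG at chr13:91351245-91351267 and another in MIR106AHG at chrX:134169683-134169705, on the minus strand, so its assay sums both loci. miR-106a lies in MIR106AHG at chrX:134170244-134170266. miR-93 lies within MCM7 (chr7:100093815-100093837), and miR-454 within SKA2 (chr17:59137787-59137809). miR-218 has copies within SLIT2 (chr4:20528299-20528319) and SLIT3 (chr5:168768211-168768231). Which of these positions are exonic or intronic was not analysed here.

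A Ct was obtained for 213, 207 and 216 assays on control cards 1, 2 and 3, and it was under 35 for 207, 203 and 208. An assay was called present when its Ct was under 35 on all 3 cards, which held for 178 of 376 (47.3%). It was called absent when all 3 wells were undetermined, which held for 131 (34.8%). Between these lay 62 assays determined on 1 or 2 cards and 5 determined on all 3 with at least 1 Ct of 35 or more. The mean Ct of the present assays ran from 16.5 to 34.4, with a median of 26.9 and quartiles of 24.2 and 29.6. The quartiles lay 5.40 cycles apart, 42.3-fold at a doubling per cycle. Present assays were split by mean Ct into 19 abundant (under 22), 80 intermediate (22 to under 28) and 79 low (28 and over). On either side of the first limit were miR-374-5p at 21.7 and miR-193b at 22.2. Replicate values below are means of raw Ct with their SD over the 3 cards (n = 3).

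At the head of the order stood miR-19b and miR-17, whose targets include brakes on the cell cycle and on survival signalling. miR-19b was at a Ct of 16.2, 17.3 and 15.9 on cards 1, 2 and 3 (mean 16.5 ± 0.766). miR-17 was at 16.2, 16.6 and 16.6 (mean 16.5 ± 0.226). Their order changed between cards, with a within-card difference of 0.0447 ± 0.718 cycles. miR-106a, from the X-linked paralogue, came next at 16.7, 17.3 and 16.5 (mean 16.8 ± 0.405). It followed miR-17 by 0.326 ± 0.393 cycles, less than the SD. The sequences of miR-17 and miR-106a differ by C1A alone (positions from the 5′ end), and whether either assay reads the other's target was not tested.

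A gap followed. miR-20a was at 17.7, 18.8 and 19.8 (mean 18.8 ± 1.08) and miR-19a at 17.9, 19.3 and 19.5 (mean 18.9 ± 0.902). miR-20a came 1.93 ± 1.21 cycles after miR-106a and later on each of the 3 cards. Of the 20 steps between neighbours from miR-19b down to miR-106b, this step and that from miR-374-5p to miR-193b (0.448 ± 0.168) were the 2 that exceeded their SD, and 3 kept the same order on all cards. Most neighbours in the list were therefore not separated by their replicate spread.

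The band from rank 6 to rank 13 joined miRNAs of different functions. miR-16, a family known to restrain cyclins, was at 19.1, 20.7 and 18.5 (mean 19.4 ± 1.10). miR-191, a miRNA of the chromosome 3 DALRD3 locus, was at 19.8, 20.1 and 18.6 (mean 19.5 ± 0.823). miR-222, which targets the cyclin-dependent kinase inhibitor p27, was at 19.96, 20.3 and 19.9 (mean 20.1 ± 0.205), the smallest SD among the first 20. The spread was wider for the others. miR-484 was at 20.6, 21.4 and 19.1, miR-218 at 20.5, 21.9 and 19.3, and miR-454 at 21.5, 21.4 and 19.2, so that card 3 was lowest for each of these. miR-196b, which lies in the HOXA cluster and targets HOX messages, was at 21.3, 21.2 and 20.2. miR-30c closed the band at 20.4, 22.3 and 20.1.

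Ranks 14 to 20 were taken by miR-93, miR-24, miR-30b, miR-186, miR-331, miR-374-5p and miR-193b, with mean Ct values from 21.3 to 22.2. By card, miR-193b stood at rank 25, 22 and 23, so it was outside the first 20 on each. miR-93, with the miR-17 seed, was at 20.8, 21.4 and 21.7 and so stood at rank 12 on cards 1 and 2 and 24 on card 3. miR-24, known as a regulator of cell cycle genes, was at 21.4, 22.6 and 20.3, highest on card 2.

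**Figure D1:**
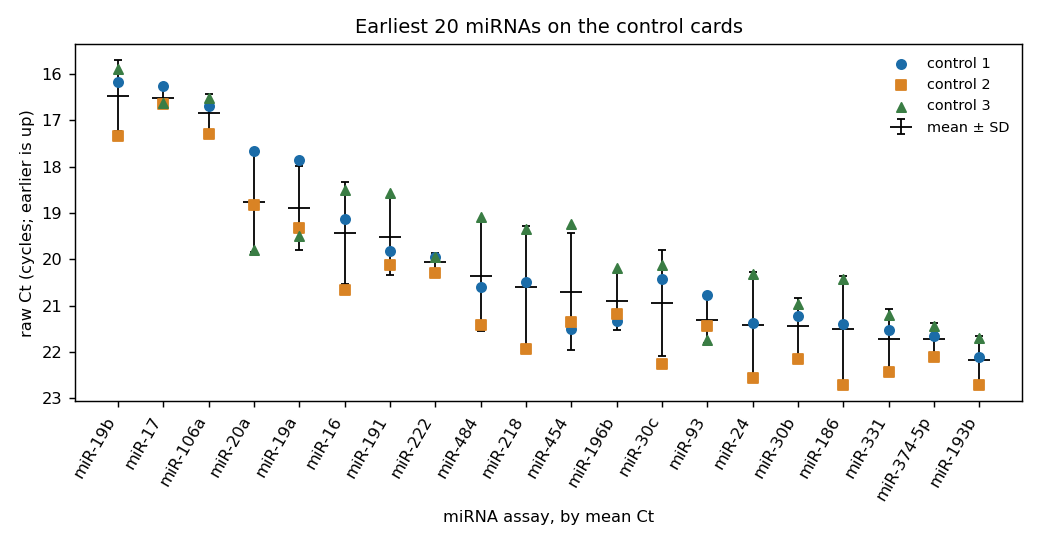
Raw Ct (cycles, axis inverted so that earlier is up) of the 20 assays with the lowest mean Ct, one symbol per control card, with the mean and SD over the 3 cards. miR-19b, miR-17 and miR-106a stand apart at means of 16.5 to 16.8, and the symbols of neighbouring assays further right overlap.

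If each cycle is taken as a doubling and all assays as equally efficient, the sum of 2 to the power of minus Ct over all assays gives the weight of each miRNA on a card. On that scale miR-19b, miR-17 and miR-106a together held 60.7%, 65.3% and 60.0% of the signal on cards 1, 2 and 3 (62.0% ± 2.85, SD, n = 3). The 19 abundant assays held 90.7% ± 0.850, the 80 intermediate ones 8.97% ± 0.854 and the 79 low ones 0.237% ± 0.0578 (SD, n = 3). The first 3 thus outweighed the rest on every control card. By seed, the AAAGUGC family (7 assays, 6 of them present) held 47.8%, 55.3% and 36.0%, and the GUGCAAA family (miR-19a and miR-19b) 30.04%, 22.5% and 29.0%. The split among members was less stable than the total. miR-20a fell from 8.20% and 6.35% on cards 1 and 2 to 1.77% on card 3, where its Ct was latest.

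Members of a cluster did not share a Ct. Within the interval of miR-17~92 (chr13:91350618-91351382), all 6 assays were present. They spanned 6.10 cycles, from miR-19b to miR-18a (21.9, 23.3 and 22.5), with miR-92a next to last (22.1, 22.4 and 22.5). miR-18a and miR-92a were intermediate and the other 4 abundant. The X-linked cluster (chrX:134169382-134170266) spanned 14.9 cycles, counted from miR-19b, which it shares. Its own members were miR-106a (mean 16.8), miR-20b (23.1), miR-18b (24.9) and, last, miR-363, at 30.7, 32.7 and 30.7. The third paralogue, within MCM7 (chr7:100093571-100094063), spanned 3.64 cycles, from miR-93 (mean 21.3) over miR-106b (22.2) to miR-25 (24.96). Assay efficiency was not measured, so how much of such a span is abundance was not tested.

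Among the present assays, 26 pairs had targets that differ at 1 or 2 bases. In 15 of them the same member was earlier on all 3 cards, in 11 the order changed between cards, and in 17 the mean difference exceeded its SD. The targets of miR-29a and miR-29c differ at 1 base and their Ct values by 2 cycles or more on every card. So do these pairs, shown as examples chosen after their values were seen:
miR-18a: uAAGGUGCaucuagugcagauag
miR-18b: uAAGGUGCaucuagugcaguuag
miR-103: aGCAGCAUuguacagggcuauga
miR-107: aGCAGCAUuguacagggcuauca

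miR-18b, which differs from miR-18a by A20U, came 2.50, 2.37 and 2.16 cycles later on cards 1, 2 and 3 (mean 2.34 ± 0.171). miR-107, which differs from miR-103 by G22C, came 4.74, 3.29 and 3.32 cycles later (mean 3.78 ± 0.828). miR-29c (C10U from miR-29a) came 4.93, 3.71 and 3.64 cycles later (mean 4.09 ± 0.727). miR-19a (C11U from miR-19b) came 1.68, 1.99 and 3.62 cycles later. In each of these pairs the same member led on every card, while the size of the difference varied. Among the 11 pairs whose order changed were miR-27a and miR-27b, miR-100 and miR-99a, and miR-200a and miR-141. miR-10b (U12A from miR-10a) came 1.53, 0.134 and -0.111 cycles after miR-10a on cards 1, 2 and 3, so the order turned on card 3. Over the 28 seeds with at least 2 present assays, the earliest and latest mean Ct of a seed differed by a median of 3.03 cycles, from 0.146 cycles for miR-708 and miR-28 to 9.33 cycles for the miR-16 seed. In the latter, miR-16 stood at a mean of 19.4 and miR-15b at 23.6, while miR-424 was at 28.8.

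Around the median of the present assays stood miR-27a (26.2, 28.01 and 26.5), which promotes proliferation in many lines, and miR-21 (25.9, 27.6 and 27.4), a miRNA high in many tumours. Their neighbours were miR-324-5p, miR-296, miR-99a, miR-187, miR-339-5p and miR-15a, all between mean Ct values of 26.7 and 27.1. The counts of present assays by family given here stand beside a share of 47.3% over all 376 assays. The let-7 family, which marks differentiated tissue and represses growth genes, was low. Of its 8 assays 6, miR-98 included, were present, with means from 28.4 (let-7b) to 30.6 (let-7f). The other two, let-7e and let-7g, were at 25.5 and 25.8 on card 1 and 27.6 and 24.9 on card 3 but undetermined on card 2. On cards 1 and 3 both were earlier than every let-7 assay called present. Of the miR-26, miR-29 and miR-30 families all 7 assays were present, from miR-30c (20.9) to miR-29b (30.2). The 6 assays of miR-99, miR-100 and miR-125 were all present as well, from miR-125a-5p (24.01) to miR-125a-3p (30.4), as were the 4 of miR-103, miR-107, miR-221 and miR-222. Of the miR-130, miR-301, miR-454 and miR-148 families 7 of 8 were present, from miR-454 (20.7) to miR-148b (29.1). The 3 assays of the miR-183 cluster, known from sensory cells, ran from miR-182 (26.1) to miR-96 (31.97). Of the miR-34 family, with the miR-449 assays counted in, 2 of 4 were present, a share near that of all assays. They were miR-34a (25.9) and miR-449 (30.3).

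Of the kidney-enriched miRNAs, miR-192 was at 24.4, 24.8 and 24.3, miR-194 at 27.3, 27.5 and 26.9 and miR-204 at 27.3, 28.4 and 26.8. All 3 were intermediate, while the fourth, miR-215, was absent. The miR-200 family, which holds cells in an epithelial state, was present with 5 of 5 assays, but 4 of them were low. For the counts of these short lists, the share present over all 376 assays was 47.3%. miR-200c was at 25.3, 25.8 and 25.2, against means of 29.6 for miR-200b and 31.4 for miR-429. Of the 5 HOX-embedded assays 4 were present. The earlier ones were miR-196b at a mean of 20.9, miR-10a at 22.6 ± 0.924 and miR-10b at 23.1 ± 0.790. miR-615-5p was low, at 30.8, 29.7 and 31.5, and the miR-615 assay was absent.

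Among the markers of other lineages, miR-126, encoded in EGFL7 and known as the endothelial miRNA, was at 22.4, 23.2 and 21.2 (mean 22.3), just outside the abundant class, at rank 29, 26 and 17 on cards 1, 2 and 3. Of the 9 listed neuronal assays 5 were present (55.6%, against 47.3% of all 376), led by miR-138 (24.2, 25.6 and 21.9) and miR-9 (24.1, 24.8 and 24.7), the latter a brake on neural progenitor growth. miR-124a, the most neuron-restricted, was low at 27.4, 29.3 and 30.1. miR-137, miR-153 and miR-219 were absent (the star-strand assay miR-219-1-3p, outside the list, was at 32.1 and 32.5 on cards 2 and 3), as was the miR-129 assay, although miR-129-3p was present at a mean of 28.5. Of the blood list 2 of 8 assays were present, miR-486 at 27.7, 28.4 and 26.1 and miR-223 at 29.5, 29.8 and 32.1, and the erythroid miR-451 was absent. The count was 4 without card 3 and 1 at a limit of Ct 32. Of muscle miRNAs 1 of 7 was present (miR-133a, mean 29.2), and of the liver and pancreas list 1 of 5, the islet miRNA miR-375 at 28.1, 29.2 and 28.7, or 2 of 5 without card 2. The liver miRNA miR-122 was absent.

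Many of the absent assays lay in a few clusters. At 14q32, the imprinted DLK1-MEG3 region whose miRNAs are expressed from the maternal chromosome, 33 of 43 assays were absent, 8 were seen on some cards and 2 were present. The present ones were miR-494 (24.95, 26.5 and 28.2) and miR-487a (28.4, 27.9 and 30.5). The stretch that holds them (chr14:101022071-101065981) carries 35 of the 43, of which 27 were absent, and miR-494 alone among them was intermediate. It also carries the absent miR-453, which the list does not hold. Of the 34 listed assays of the placental cluster C19MC, 25 were absent and 1 was present, miR-518b at 30.1, 32.04 and 31.4. A further assay of the cluster outside the list, miR-520a#, was absent. The count of present assays was 1 of 34 with all cards, 2 without card 1 or card 3, and 0 at a limit of Ct 32. Of the pluripotency clusters of miR-302 and miR-371, 6 of 7 assays were absent. The exception was miR-302b at 32.7, 34.0 and 32.6, lost at a limit of Ct 32. The Xq27 clusters, active in testis and epididymis, had 8 of 11 assays absent, with miR-891a as the sole present assay at 34.5, 34.5 and 34.2, the highest mean Ct of any present assay. The other late assays were miR-181c, miR-876-3p, miR-338-3p and miR-642, with means up to 32.5. At a limit of Ct 32 none of the 11 was present, and without card 1 there were 2. By contrast, 9 of the 11 assays of the Xp11 cluster, also on the X chromosome, were present, led by miR-660 (mean 23.6) and miR-532 (23.8). The 14q32, C19MC, Xq27, pluripotency, neuronal, blood, muscle, and liver and pancreas lists together held 83 of the 131 absent assays. Of their own 124 assays, 14 were present. Of all 376 assays, 178 (47.3%) were present and 131 (34.8%) absent, and 43 of the absent ones were in no list. The pooled lists differed, as the neuronal one had 5 of 9 assays present, above the share of all assays. The endothelial list, with its 1 assay present, was not pooled.

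**Figure D2:**
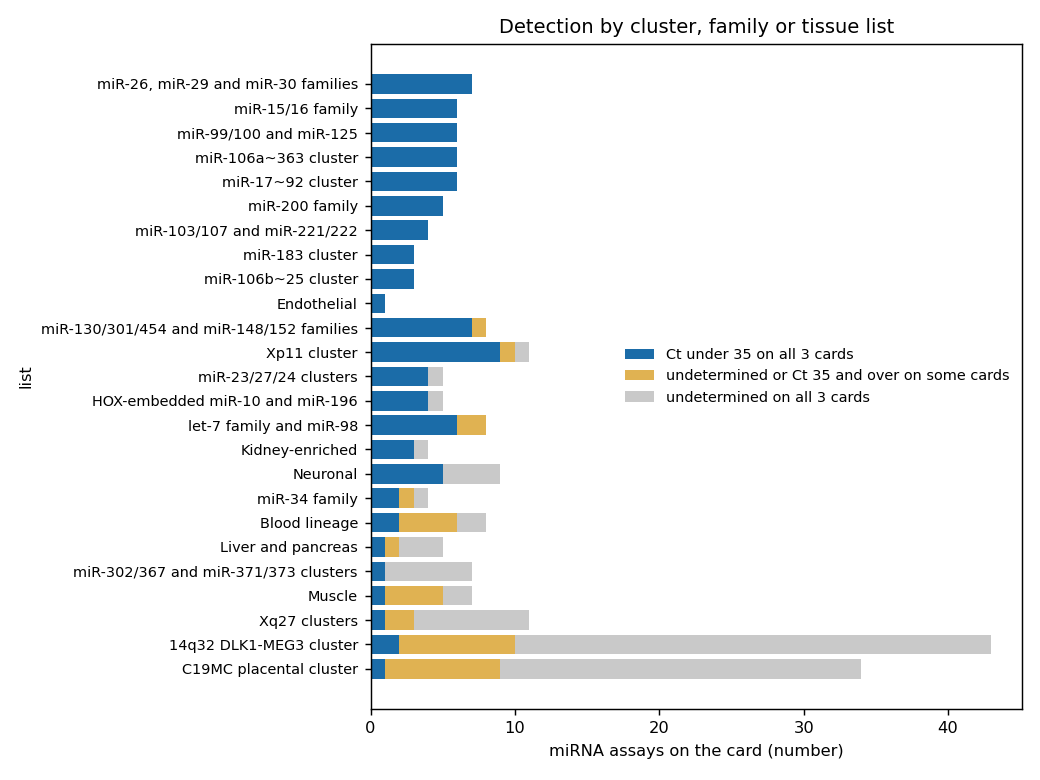
Number of assays (horizontal axis) of each cluster, family or tissue list by detection on the 3 control cards, with blue for Ct under 35 on all cards, yellow for assays undetermined or at 35 and over on some, and grey for undetermined on all. The 14q32 and C19MC bars are mostly grey, with 2 of 43 and 1 of 34 assays present. miR-19b and miR-92a count in both the miR-17~92 bar and that of its X-linked paralogue.

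Among the 62 assays seen on 1 or 2 cards, the 87 determined wells had a median Ct of 32.2 with quartiles of 31.1 and 33.5, and 7 wells, of 5 assays, were under 30. Those assays were let-7e and let-7g, miR-335, miR-383 and miR-150. miR-335 was at 24.5 on card 3 and undetermined on cards 1 and 2. miR-150, a lymphocyte miRNA, had a single Ct of 29.9, on card 3. miR-23a was undetermined on all 3 cards, and its cluster partners miR-24 and miR-27a had means of 21.4 and 26.9. Whether such wells reflect the level or the well was not tested. Assays seen on a single card numbered 10, 10 and 17 for cards 1, 2 and 3. Among the 5 assays over the limit, miR-155, a miRNA of activated lymphocytes, was at 30.8, 28.4 and 37.3.

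Rank agreement between the cards was close over the whole range, and rho was lower within the abundance classes. Over the assays determined on both cards of a pair, Spearman's rho of raw Ct was 0.970 for cards 1 and 2 (192 assays), 0.946 for cards 1 and 3 (194) and 0.932 for cards 2 and 3 (188), with Pearson's r of 0.972, 0.944 and 0.926. These values are across assays, which share a card, and describe the cards. Among the 19 abundant assays rho was 0.832, 0.761 and 0.753 for the same pairs. Among the 80 intermediate ones it was 0.932, 0.832 and 0.833, and among the 79 low ones 0.796, 0.579 and 0.492. The classes were cut on mean Ct of these same cards, and a narrower range of Ct itself lowers rho. A rho within a class therefore cannot be set against that over the whole range. The lowest agreement was thus among low assays and involved card 3. Of the 20 earliest assays on each card, 18 were common to all 3. The others were miR-93, miR-106b, miR-92a, miR-126 and miR-345, whose ranks ran from 12 to 33. The earliest 10 shared 7 and the earliest 50 shared 44.

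**Figure D3:**
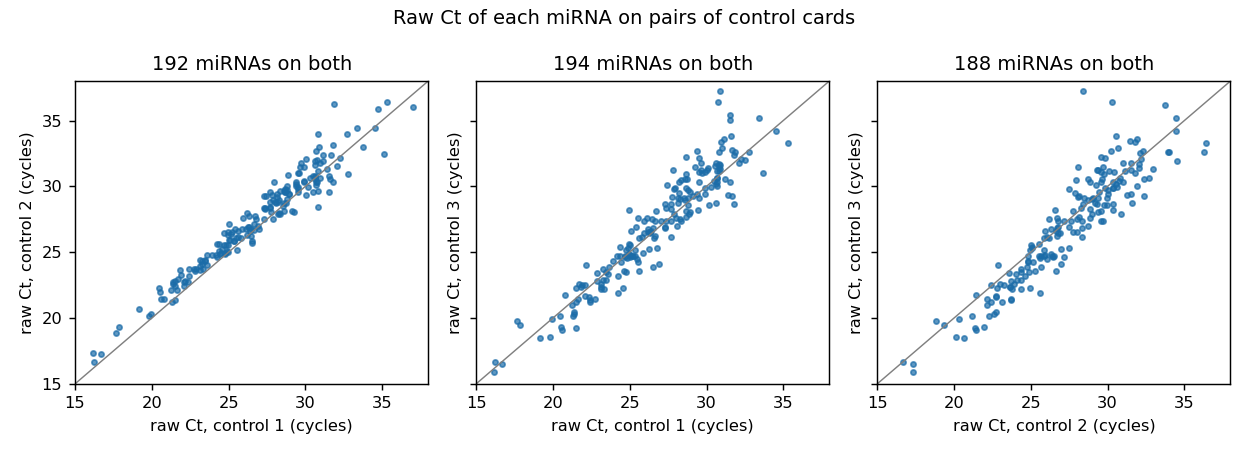
Raw Ct (cycles) of each miRNA on 2 control cards, for the 3 pairs of cards, with the line of equality in grey. The points are tightest for controls 1 and 2 (192 assays) and spread above Ct 28 in both panels with control 3.

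Pairs that kept their order on all cards were counted by their gap in mean Ct. The count took in all 15753 pairs of present assays, which share assays and cards. Pairs whose mean Ct differed by under 1 cycle had the same order on all 3 cards in 28.2% of cases. From 1 to under 2 cycles the share was 83.0%, and from 2 to under 3 cycles 98.9%. All 3453 pairs from 3 to under 5 cycles and all 5408 pairs from 5 cycles up kept their order. Order was kept in nearly all pairs at least 2 cycles apart. Gap and order come from the same 3 cards, so a wide gap itself favours a kept order. The shares describe these cards and give no limit for others.

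The SD of a present assay over the 3 cards had a median of 0.742 cycles, with quartiles of 0.465 and 1.08, and 54 of 178 exceeded 1 cycle. Relative to U6, the reference in the deposited ratios, the median SD was 1.41 cycles and 146 of 178 exceeded 1. Relative to each card's own median over present assays it was 0.621 and 38 exceeded 1. The U6 mean was 14.7, 13.97 and 12.2 on cards 1, 2 and 3, a range of 2.58 cycles, and rested on 4, 4 and 2 determined wells. The U6 wells of a single card also differed, from 13.5 to 16.3 on card 1, 13.3 to 14.3 on card 2 and 11.2 to 13.1 on card 3. How much of the range between cards is well error was not tested. The median of the present assays ranged over 0.802 cycles. For miR-17 the deposited ratio to U6 was 0.350, 0.157 and 0.0448, a 7.82-fold range, while its raw Ct ranged over 0.399 cycles. For miR-222 the ratio was 0.0267, 0.0124 and 0.00453, a 5.90-fold range, against 0.365 cycles of raw Ct. The ratios of both were lowest on card 3, where U6 was earliest.

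**Figure D4:**
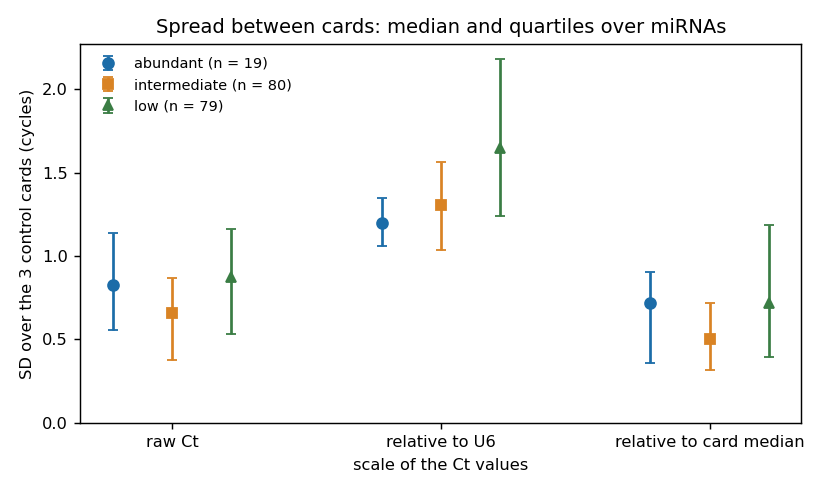
SD of Ct over the 3 control cards (cycles, median with quartiles over miRNAs) for abundant, intermediate and low assays, on the raw scale, relative to U6 and relative to the card median. The U6 scale has the highest median in each class, 1.20, 1.31 and 1.65 against 0.823, 0.660 and 0.876 for raw Ct.

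Relative to the card median, control card 3 was the farthest from the other two for 96 of the 178 present assays, card 1 for 44 and card 2 for 38. Of the 38 assays with an SD over 1 on this scale, 29 had card 3 farthest, 17 of them later there and 12 earlier. The steadiest assays were miR-103, which acts in metabolic control, with a range of 0.185 cycles, and miR-200b, miR-301b, miR-125b, miR-652 and miR-130b, with ranges from 0.218 to 0.316. The widest was let-7a, at 2.54, 0.55 and 4.53 cycles above the card medians. miR-29b, which targets collagen messages, was at 1.98, 2.08 and 5.29, miR-423-5p at 1.13, 1.87 and 4.29, and miR-96 at 4.89, 3.05 and 6.83. These were all latest on card 3. miR-138 went the other way, at -2.47, -1.90 and -5.07.

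The let-7 seed family did not move as a block. These sequences are shown because members that share the seed went opposite ways between cards:
let-7a: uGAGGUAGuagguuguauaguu
let-7b: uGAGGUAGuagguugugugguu
let-7c: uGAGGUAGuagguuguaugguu
let-7d: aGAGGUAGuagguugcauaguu
let-7f: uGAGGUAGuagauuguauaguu
miR-98: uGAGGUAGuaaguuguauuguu

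The let-7a, let-7b, let-7c, let-7d and let-7f assays were latest on card 3 by raw Ct, at 31.5, 29.8, 31.2, 31.0 and 31.2. miR-98, which differs from let-7a by G11A and A19U, was earliest there, at 31.8, 30.4 and 28.7. It came 2.58, 2.31 and -2.83 cycles after let-7a on cards 1, 2 and 3, so the order turned on card 3. let-7b preceded let-7c (G17A) by 2.11, 1.81 and 1.46 cycles, the same order on each card.

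**Figure D5:**
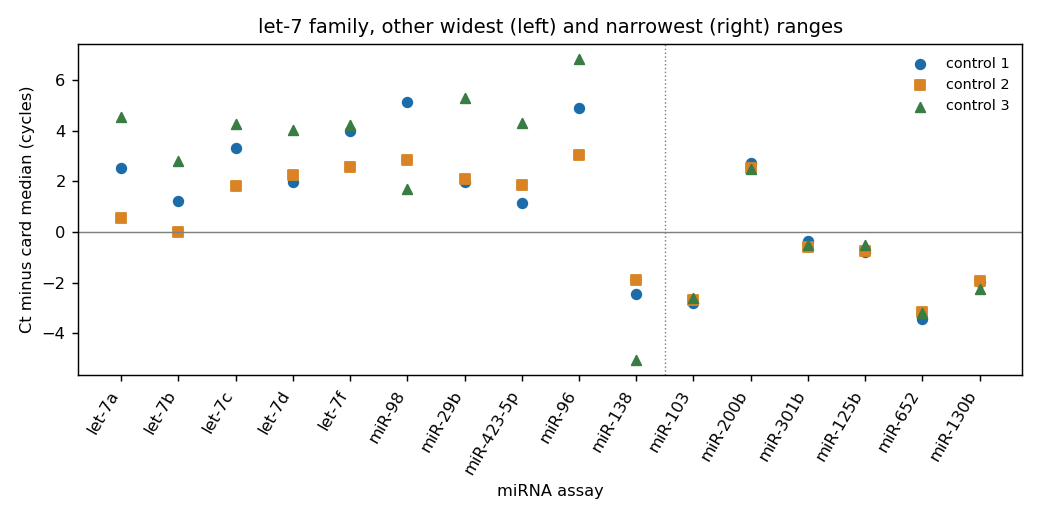
Ct minus the card median (cycles) on each control card for the let-7 assays determined on all cards and the other assays with the widest range (left of the dotted line) and the 6 with the narrowest (right). Control 3 is the highest symbol for let-7a and miR-29b and the lowest for miR-98 and miR-138, and the symbols on the right nearly coincide, within 0.185 to 0.316 cycles.

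The first base of the target was counted by detection class, with no test. The target began with U in 104 of 178 present assays (58.4%), 23 of 62 seen on some cards (37.1%) and 43 of 131 absent ones (32.8%), against 45.5% of all 376. An A in this place was found in 23.03%, 32.3% and 34.4%. Within the present assays the share with U was similar at all levels, 57.9% of the abundant, 57.5% of the intermediate and 59.5% of the low. GC content was alike, with a median of 45.6% in present and 47.6% in absent assays, and length had a median of 22 bases in both. Across the 178 present assays, mean Ct and GC content had a Pearson's r of -0.0556. Assays of 1 cluster or family share sequence, so these shares are a description of the card. Primers are built on the target, and the part of the assay in these shares was not tested.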

How the data were processed

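Total RNA of HEK-293FT cells was reverse transcribed with pooled miRNA primers and run on TaqMan array cards for 40 cycles, per the labels' protocols. The deposited Ct values are raw, with undetermined wells marked as such. The threshold and baseline settings are not given in the sources used here. The deposited ratio of each assay was set by the authors relative to U6: on the log2 scale it equalled the mean U6 Ct of the card minus the assay's Ct to within 6.12e-06 over 636 values. Cards were grouped by title. Undetermined wells were treated as missing, not as a value.

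Ranks, means, SDs and correlations were computed in Python 3.11.15 with pandas 2.3.3 and scipy 1.17.1. The formulas for the median SD and for Spearman's rho were tried on simulated cards. Those cards had a constant SD and no undetermined wells, and the other summaries were not tried in this way. No comparison of groups was made, so no p-value is given. A list took every assay whose name, with or without its -3p or -5p ending, was listed. Names written otherwise (miR-520a#, miR-219-1-3p, miR-219-2-3p) were not taken. Clusters were RefSeq entries of 1 strand under 10000 bases apart. Named assays were the first 20, 8 nearest the median, 6 latest, 6 widest and 6 narrowest, with the earliest and latest of each list. Others were chosen after their values were seen: pairs of close sequence, miR-335, miR-383, miR-150, miR-155, miR-23a, and other list members. The members and lists were chosen with earlier results of these data known. Depth is the number of assays determined. A single well per assay leaves well error and sample difference inseparable.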

Additional observations from a re-analysis of the deposited data

How the results depend on the processing

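The count of present assays (178) was 160 at a limit of Ct 32 and 182 at 37, and 182 to 188 with a card left out. That of absent assays (131) was 137 with Ct 35 and over counted as absent, and 141 to 148 with a card left out. Both classes require all cards used, so leaving a card out can only keep or raise these counts, also within a list. The abundant class depended on its limit, with 30 assays at a mean Ct under 23 and 13 under 21 against 19, and 18 to 24 with a card left out. The lowest rank agreement of a pair (0.932) was 0.900 with undetermined wells set to Ct 40. This adds the assays missing on either card or on both, so the 131 absent assays enter it as ties. With a card left out 1 pair remains, so the values of 0.932 to 0.970 are those of the pairs themselves. The median SD (0.742) was 1.41 relative to U6, 0.621 relative to the card median, 0.582 after quantile normalization and 0.516 to 0.760 with a card left out. Of the earliest 20 assays 18 were shared, of the earliest 10, 7, and of the earliest 50, 44. With a card left out 18 to 19 of 20 were shared, a count that can only stay or rise. Ranks by mean Ct cannot change relative to U6 or the card median, which shift all assays of a card alike. Ranks of the 46 named assays moved by more than their SD for 3 of 46 with means of within-card ranks and for 4, 1 and 2 of 46 without card 1, 2 and 3. The cause of these moves was not tested. No paired analysis was possible because the profile uses the control cards alone and comes from no test. A Ct near 35 rests on little template. The median SD of raw Ct was 0.823 cycles in the abundant, 0.660 in the intermediate and 0.876 in the low class. Relative to the card median it was 0.721, 0.502 and 0.719 in the same classes.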
